A study of Mus musculus with 4 samples.

Results

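Formative and primed state genes are transcribed as the pluripotent epiblast leaves the naive state. A set of 9 such genes was followed here by symbol: the RNA-binding proteins Lin28a and Lin28b, the transcription factors Otx2, Pou3f1, Zic2, Sall2 and Foxd3, the chromatin-associated factor Utf1 and the secreted ligand Fgf5. Of these, 8 had a row among the 14533 genes of the deposited RNA-seq table, and Fgf5 is not analysed here because its identifier had no row. The table held only genes with at least 51 reads over the 4 libraries.

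The RNA came from mouse embryonic stem cells (ESCs) in late G1-phase, shortly before cells begin to replicate their DNA. Serum ESCs had been fully adapted to medium with fetal calf serum, and 2i ESCs to serum-free Ndiff medium with inhibitors of MEK and GSK3. These kinases pass on ERK signals and restrain WNT signals, respectively. Per the study's methods both media held the cytokine LIF, so serum and base medium differed together with the inhibitors. Each condition had 2 libraries, numbered replicate 1 and 2 in the labels, and p-values measure the spread between these libraries only. The labels give no cell line, and the series description speaks of early instead of late G1-phase.

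The naive state corresponds to the preimplantation epiblast and is held in place by 2i. After implantation, cells pass through a formative state, marked by Otx2, Pou3f1 (which encodes OCT6) and Fgf5, towards the primed state of epiblast stem cells. LIN28A and LIN28B bind the precursors of let-7 microRNAs and block their maturation. Mature let-7 in turn pairs through its seed with sites in the 3' untranslated regions (UTRs) of Lin28a and Lin28b, so that each represses the other.

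Since this loop rests on a short match, the sequences are shown first. Of 11 mature let-7 family names in RefSeq (GRCm38.p6), 10 carried the same seed, bases 2 to 8, which is in capitals below. The exception was let-7j, shown last.

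let-7a: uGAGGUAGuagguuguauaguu

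let-7g: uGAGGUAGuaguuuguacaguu

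miR-98: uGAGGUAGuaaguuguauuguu

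let-7j: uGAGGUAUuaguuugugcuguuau

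The complement of the shared seed, CTACCTC, was searched in the 3' UTR of the longest coding transcript of each gene (GENCODE vM1, genome build mm9, transcript strand). Among the 9 genes it was found in Lin28a and Lin28b and not in the 3' UTRs of the other 7. Lin28a had 2 matches in 2775 bases and Lin28b had 4 in 4445 bases. Of all 19915 genes with a 3' UTR, 8.20% held a match, and longer 3' UTRs held more. Among genes with a 3' UTR of similar length (0.8 to 1.25 times), the share was 15.4% of 2156 genes for Lin28a and 25.2% of 993 genes for Lin28b. A match is a description of the letters and not a measured site. The windows below run 5' to 3' on the minus strand, with the match in capitals.

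Lin28a, chr4:133561104-133561125: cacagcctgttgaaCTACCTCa

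Lin28a, chr4:133560466-133560487: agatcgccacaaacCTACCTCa

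Lin28b, chr10:45100828-45100849: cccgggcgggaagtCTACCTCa

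Lin28b, chr10:45098454-45098475: atacttgttagtaaCTACCTCt

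Lin28b, chr10:45098282-45098303: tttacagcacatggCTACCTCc

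Lin28b, chr10:45096866-45096887: aatgatggcaccgaCTACCTCt

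Both Lin28a matches and the first Lin28b match are followed by an A. That base lies opposite the first base of let-7, and an A there is known to strengthen repression. The first Lin28b match starts at base 36 after the stop codon, and the Lin28a matches at bases 909 and 1547.

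**Figure D1:**
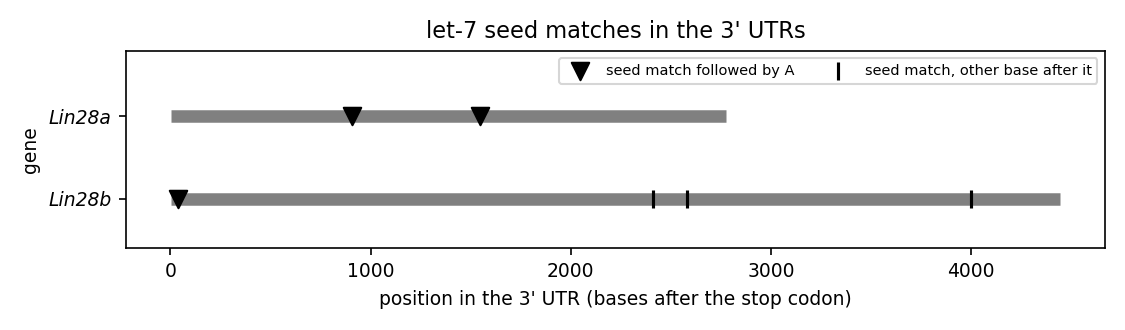
Positions of let-7 seed matches (x axis, bases after the stop codon) along the 3' UTRs of Lin28a (2775 bases) and Lin28b (4445 bases), drawn as grey bars. Triangles mark the 3 matches followed by an A and ticks mark the 3 others.

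The libraries held from 18939401 to 26570098 whole reads, of which the 8 genes took from 0.00957% to 0.0416%. Between 46.9% (serum replicate 1) and 76.3% (serum replicate 2) of the reads fell on protein-coding genes. The deposited values are gene counts divided by a size factor for each library, called normalized counts below. All 9 core pluripotency genes listed for checking the ESC label had a row, and Pou5f1, which encodes OCT4, had from 8452 to 20050 normalized counts. Levels are compared between genes only as normalized counts per kb of exon. Differences within a gene are given as log2 fold changes of (normalized count + 1), serum over 2i, from limma. Calls needed a fold change over 2 and a Benjamini-Hochberg adjusted p-value, taken over 13005 genes, under 0.05.

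None of the 8 genes was called by limma without a replicate term or by edgeR on whole reads, and DESeq2 called 1, Lin28a. Over the table, limma called 0 genes (0%) with more RNA in serum ESCs and 2 genes (0.0154%) with more in 2i ESCs. DESeq2 called 0.561% of all genes in favour of serum and 1.37% in favour of 2i. With the p-value left unadjusted and the same limits, 2 of the 8 genes, Lin28a and Lin28b, were higher in serum ESCs, against 2.97% of all genes, and 0 were higher in 2i ESCs, against 3%. In 3 of the 8 genes (Lin28a, Lin28b and Pou3f1) both serum libraries lay above both 2i libraries, as in 20.5% of all genes. Of these, Pou3f1 was tested only because its mean reached 50 in serum ESCs (85.2, against 44.4 in 2i ESCs), which favours that direction. In Sall2 both 2i libraries lay above both serum libraries, as in 19.4% of all genes. In the other 4 genes the conditions overlapped. The 8 genes split evenly by direction, with a median log2 fold change of 0.46, against 0.0047 over all genes tested. The median of the 8 was 0.15 with DESeq2 and 0.080 without 2i replicate 1.

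**Figure D2:**
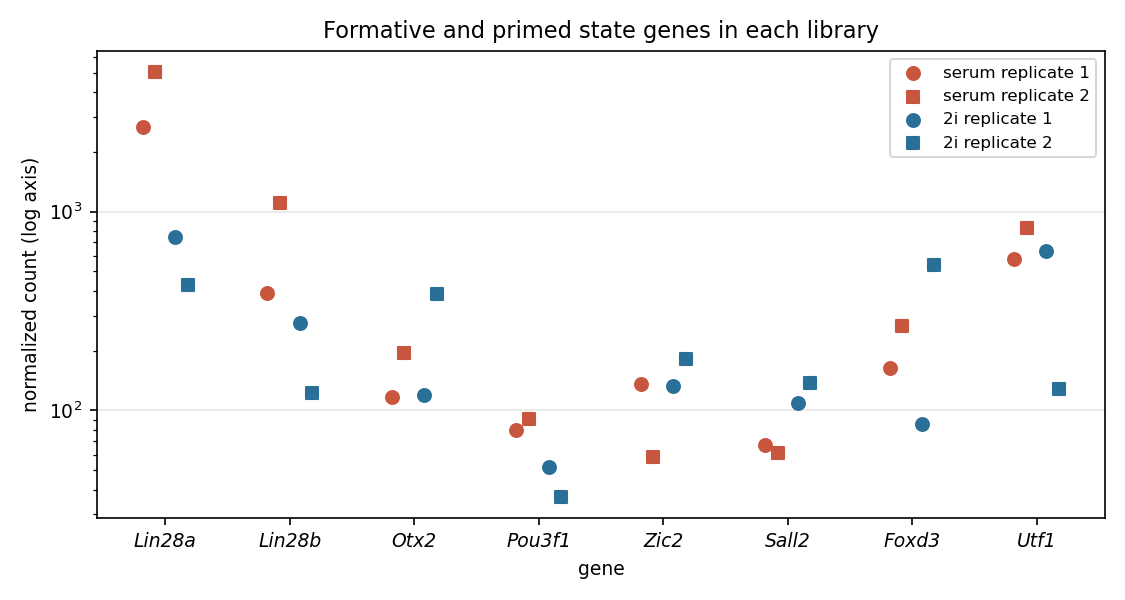
Normalized counts (log axis) of the 8 genes in each of the 4 libraries. Circles are replicate 1 and squares replicate 2, with serum ESCs in red and 2i ESCs in blue; the conditions are apart for Lin28a, Lin28b, Pou3f1 and Sall2.

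Lin28a (ENSMUSG00000050966, mm9 chromosome 4, 133559245 to 133574756, minus strand) encodes the RNA-binding protein that has been used as a reprogramming factor in human cells. In serum ESCs it reached 2656 normalized counts in replicate 1 and 5038 in replicate 2. In 2i ESCs replicate 1 stood at 743 and replicate 2 at 428. The lower serum library was thus 3.57-fold above the higher 2i library. Within conditions the replicates differed 1.90-fold in serum and 1.74-fold in 2i. The log2 fold change was 2.70 (SE 0.54, 95% interval 1.40 to 3.99), with an unadjusted p-value of 0.00196 and an adjusted p-value of 0.753 (limma). With DESeq2 on whole reads, the tool the study used, it was called, at a log2 fold change of 2.68 and an adjusted p-value of 0.000849. An antisense gene without a row, Gm13061, overlaps its exons, and whether the counting used strand is not given in the sources used here. Of the 43-base words of Lin28a, the length of a read, 98.15% occurred in no other annotated gene.

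Lin28b (ENSMUSG00000063804, chromosome 10, 45096426 to 45206201, minus strand), the paralogue that acts on the same precursors, was measured at 388 and 1111 normalized counts in the serum libraries, against 274 and 122 in the 2i libraries. The conditions did not overlap, but serum replicate 1 exceeded 2i replicate 1 by only 1.42-fold, less than the 2.86-fold difference between the serum replicates. Its log2 fold change was 1.84 (SE 0.69, 95% interval 0.17 to 3.50; limma, unadjusted p-value 0.0355, adjusted p-value 0.753). Leaving out serum replicate 2 gave 1.08, and leaving out 2i replicate 2 gave 1.26. Without serum replicate 1 the value was 2.59, and without 2i replicate 1 it was 2.42. Correcting for GC content and length gave 1.33. With DESeq2 its log2 fold change was 1.88, with an unadjusted p-value of 0.0182 and an adjusted p-value of 0.247. The study's methods name a p-value under 0.05 with over 2-fold change, and do not say whether it was adjusted. Lin28b would meet those limits only if it was not.

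Both paralogues had the same order of libraries, namely serum replicate 2, serum replicate 1, 2i replicate 1 and 2i replicate 2. Per kb of exon, however, Lin28a stood far above Lin28b, with means of 1098 and 82.7 in serum ESCs and 167 and 21.9 in 2i ESCs. Lin28a ranked above 87.1% of all genes tested by mean normalized count per kb, and Lin28b above 28.2%.

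Otx2 encodes the homeodomain factor that directs OCT4 to formative enhancers. Its gene (ENSMUSG00000021848, chromosome 14, 49277354 to 49287319, minus strand) was measured at 117 and 195 normalized counts in the serum libraries, against 119 and 384 in the 2i libraries. Its level in 2i replicate 1 lay between those of the serum libraries, and the 2i replicates differed 3.22-fold. The log2 fold change was -0.50 (SE 0.72, 95% interval -2.23 to 1.23; limma, adjusted p-value 0.882), and it turned to 0.34 without 2i replicate 2.

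Pou3f1, a POU-domain factor of the formative epiblast, was measured at 80.0 and 90.4 normalized counts in the serum libraries, against 51.9 and 36.9 in the 2i libraries. These values rest on 38 to 93 reads a library, and Pou3f1 passed the filter on low values only through serum ESCs. Its log2 fold change was 0.94 (SE 0.81, 95% interval -1.01 to 2.90; limma, adjusted p-value 0.783). The annotation lists 2 overlapping entries of this name on chromosome 4. The row belongs to ENSMUSG00000090125 (124334889 to 124337899, plus strand), which GENCODE vM1 types as a pseudogene, while the protein-coding entry ENSMUSG00000078236 had no row. Since both cover the same exons, how the authors' counting assigned reads between them is uncertain.

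Zic2 encodes a zinc finger factor bound at enhancers in primed cells (ENSMUSG00000061524, chromosome 14, 122874604 to 122879074, plus strand). It was measured at 136 and 58.3 normalized counts in the serum libraries, against 133 and 182 in the 2i libraries. Serum replicate 1 lay between the 2i libraries, so the conditions overlapped, and the serum replicates differed 2.33-fold. Its log2 fold change was -0.80 (SE 0.69, 95% interval -2.45 to 0.86, limma), with an adjusted p-value of 0.783. It was -0.19 without serum replicate 2, -1.40 without serum replicate 1 and -0.46 after GC content and length correction.

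Sall2, a zinc finger factor of the spalt family, was the only one of the 8 genes with both 2i libraries above both serum libraries. Its gene (ENSMUSG00000049532, chromosome 14, 52930847 to 52948437, minus strand) was measured at 67.0 and 61.2 normalized counts in the serum libraries, against 109 and 137 in the 2i libraries. The lower 2i library was 1.63-fold above the higher serum library, and replicates differed 1.09-fold in serum and 1.25-fold in 2i, the smallest replicate difference in serum among the 8. The log2 fold change was -0.92 (SE 0.67, 95% interval -2.53 to 0.69; limma, adjusted p-value 0.763). It lay between -1.08 and -0.76 when each library was left out in turn. The SE given by limma is larger than these replicates alone would give, as the fit shares the spread of all genes of similar level.

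Foxd3 encodes a forkhead factor of the pluripotent epiblast and the neural crest. Its gene (ENSMUSG00000067261, chromosome 4, 99322990 to 99325362, plus strand) was measured at 164 and 267 normalized counts in the serum libraries, against 85.1 and 536 in the 2i libraries. Both serum libraries lay between the 2i libraries, which differed 6.30-fold, more than for any other of the 8 genes. The log2 fold change was -0.03 (SE 0.90, 95% interval -2.21 to 2.15; limma, adjusted p-value 0.994). Leaving out 2i replicate 1 gave -1.35 and leaving out 2i replicate 2 gave 1.29, so no direction can be given. A gene of the same strand without a row, BX005053.1, overlaps it, and 96.65% of the 43-base words of Foxd3 were its own.

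Utf1 encodes a chromatin-associated factor of undifferentiated ESCs (ENSMUSG00000047751, chromosome 7, 147129688 to 147131011, plus strand). It was measured at 576 and 828 normalized counts in the serum libraries, against 634 and 128 in the 2i libraries. The other 3 libraries lay within 1.44-fold of each other and 2i replicate 2 was low, by 4.95-fold against 2i replicate 1. The log2 fold change was 1.27 (SE 0.79, 95% interval -0.62 to 3.17; limma, adjusted p-value 0.753), and it changed to 0.12 on leaving out 2i replicate 2 and to 2.42 on leaving out 2i replicate 1. Correcting for GC content and length gave 1.84 for Utf1, while DESeq2 gave 0.84 and edgeR 0.82. Utf1 and Foxd3 have the most GC-rich coding transcripts of the 7 genes with such a sequence, at 63.6% and 64.2%, and Lin28b the least, at 40.6%.

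**Figure D3:**
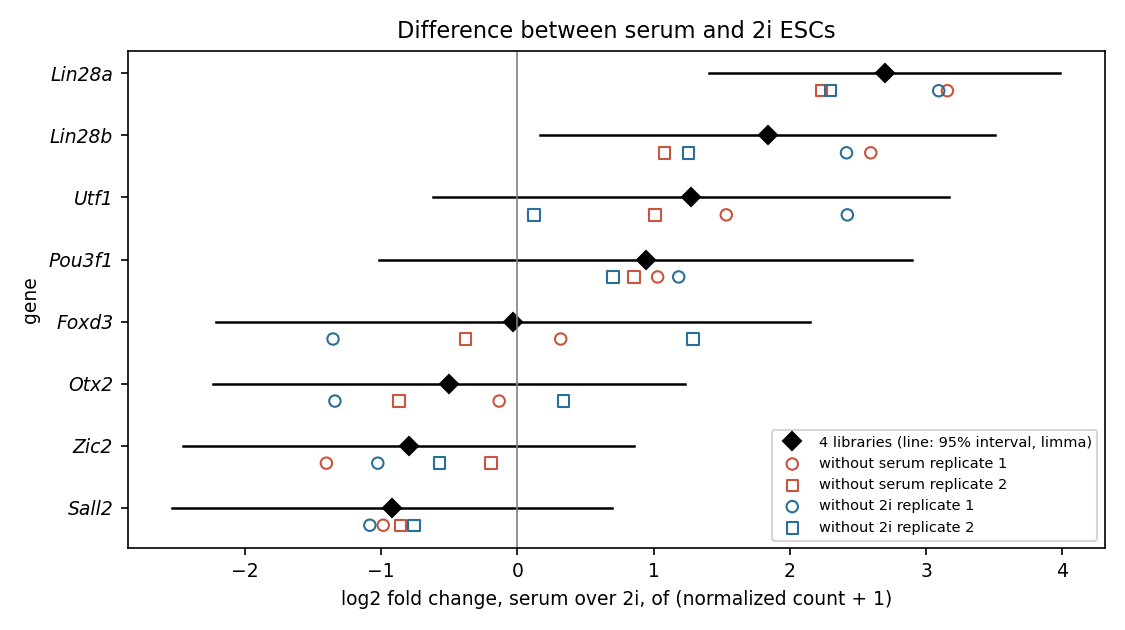
Log2 fold change of (normalized count + 1), serum over 2i, of the 8 genes. Diamonds with lines are estimates from 4 libraries with limma 95% intervals, and open symbols leave out 1 library each; the intervals of Lin28a and Lin28b alone lie above 0, before adjustment for the number of genes.

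By mean normalized count per kb in serum ESCs the order was Lin28a (1098), Utf1 (572), Foxd3 (90.9), Lin28b (82.7), Otx2 (46.0), Pou3f1 (28.3), Zic2 (23.2) and Sall2 (11.8). In 2i ESCs Utf1 came first (311), followed by Lin28a (167), Foxd3 (131), Otx2 (74.1), Zic2 (37.7), Sall2 (22.6), Lin28b (21.9) and Pou3f1 (14.7). In serum ESCs, Lin28a (758 and 1437 per kb) stayed above Utf1 (470 and 675 per kb), and Utf1 above Foxd3 (69.1 and 113 per kb). Otx2 also stayed above Pou3f1, and Zic2 above Sall2. Foxd3 and Lin28b (42.8 and 123 per kb) overlapped, as did Lin28b and Otx2, and Pou3f1 and Zic2. In 2i ESCs the ranges of Utf1 (104 to 517 per kb), Lin28a (122 to 212 per kb) and Foxd3 (35.9 to 226 per kb) all overlapped, and of the later neighbours Zic2 and Sall2 were apart.

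A single library stood at an end of the range for every one of the 8 genes, which was noticed after the values were seen. 2i replicate 2 was the lowest library for Lin28a, Lin28b, Pou3f1 and Utf1, and the highest for Otx2, Zic2, Sall2 and Foxd3. Over all genes tested it was the lowest in 28.9% and the highest in 30.6%, together 59.5%. Serum replicate 2 was the lowest library for 2 of the 8 genes and the highest for 4, and stood at an end for 56.9% of all genes. The part of 2i replicate 2 in the differences was not tested beyond leaving it out. That gave log2 fold changes of 2.30 for Lin28a, 1.26 for Lin28b, 0.70 for Pou3f1 and -0.76 for Sall2. In the same fit Zic2 was at -0.57, Utf1 at 0.12, and Otx2 and Foxd3 turned to 0.34 and 1.29.

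The genes with a pattern most like that of Lin28a, which had the highest mean normalized count over the 4 libraries among the 8 (not scaled by length), were found by the Euclidean distance of log2 values centred on each gene's mean over the 4 libraries. They were Enpp3 (distance 0.17), E2f8 (0.20) and Hmmr (0.22), and 7 of 13004 genes lay within 0.5. Enpp3 had 111 and 192 normalized counts in serum against 30.1 and 18.4 in 2i, and passed the filter on low values only through serum ESCs. E2f8, an E2F family repressor, was measured at 381 and 829 normalized counts in the serum libraries, against 105 and 58.2 in the 2i libraries. Lin28b was farther, at 0.99. Among the 8 genes the closest pairs were Zic2 and Sall2 (0.78) and Otx2 and Foxd3 (0.83). With 4 libraries such distances describe these samples only.

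The proteins that act with LIN28, general microRNA factors and the best known let-7 targets were compared next, from a list of 18 genes that all had a row. The general factors were Drosha, Dgcr8, Dicer1, Xpo5 and Ago2, and each had a log2 fold change above 0. The median log2 fold change was 0.65, 14 were higher in serum ESCs and 0 passed the threshold over all genes with limma (smallest adjusted p-value 0.753), edgeR or DESeq2. Without 2i replicate 2 the median was 0.19. In 8 of the 18 both serum libraries were above both 2i libraries (20.5% of all genes), and in 3 the reverse held (19.4%). Unadjusted p-values under 0.05 with over 2-fold change were found for 0 of them, against 2.97% of all genes in favour of serum and 3% in favour of 2i. Among the enzymes, Zcchc6 (TUT7), which adds uridines to let-7 precursors bound by LIN28A, was measured at 573 and 730 normalized counts in the serum libraries, against 365 and 329 in the 2i libraries. Zcchc11 (TUT4), its partner, stood at 1019 and 1497 in serum against 1129 and 474 in 2i. Dis3l2, the nuclease that degrades the uridylated precursors, was at the lower end, with 423 and 244 in serum against 498 and 502 in 2i (log2 fold change -0.64). Dicer1, which cuts the precursor, was at the upper end at 1.58, with 687 and 1071 in serum against 806 and 102 in 2i. The conditions overlapped for Dicer1 and Zcchc11.

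Of the 18 genes, 10 held the let-7 seed match in their 3' UTR, as the list was drawn up partly of known targets. Their median log2 fold change was 0.45, with 7 of 10 higher in serum ESCs, and it was 0.76 for the 8 genes without a match, with 7 of 8 higher. Trim71, an RNA-binding let-7 target with 2 matches, was measured at 3299 and 7270 normalized counts in the serum libraries, against 2065 and 2471 in the 2i libraries. Hmga2, a chromatin protein with 4 matches, stood at 213 and 365 in serum against 236 and 144 in 2i, and overlapped. Igf2bp3, an RNA-binding protein with 1 match, was lower in both serum libraries (1144 and 1321, against 1379 and 2100 in 2i). Mature let-7 is not analysed here.

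A second list held 31 other genes of the formative and primed epiblast, of which 26 had a row and 23 were tested. The median log2 fold change was 0.38 (0.76 without 2i replicate 1), 14 of 23 were higher in serum ESCs, and 0 passed over all genes with limma, edgeR or DESeq2. Left unadjusted, p-values under 0.05 with over 2-fold change were found for 4 in favour of serum (2.97% of all genes) and for 0 in favour of 2i (3%). Of the 4, Dnmt3b and Dnmt3a are given after their values were seen, and Etv4 headed the list. Etv4, an ETS factor induced by ERK signals, was measured at 1915 and 1897 normalized counts in the serum libraries, against 729 and 290 in the 2i libraries (log2 fold change 2.05, SE 0.55). Dnmt3b, a de novo DNA methyltransferase, stood at 740 and 1957 in serum against 244 and 483 in 2i, and its relative Dnmt3a stood at 1226 and 1858 in serum against 800 and 285 in 2i. Lef1, a WNT effector, had the lowest log2 fold change (-1.36, SE 2.05), with 21.0 and 5.83 in serum against 112 and 7.76 in 2i. The conditions overlapped for Lef1, which passed the filter on low values only through 2i ESCs.

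Paralogues of the 9 genes did not share a direction with them throughout. Of 18 listed paralogues and FGF receptors, 11 had a row and 7 were tested, with a median of 0.38, 0 passed over all genes with limma, edgeR or DESeq2, and 2 passed the unadjusted limits in favour of serum ESCs (2.97% of all genes). Sall4, the spalt factor of the pluripotency network, was among them, with 2561 and 3623 normalized counts in serum against 1645 and 980 in 2i (log2 fold change 1.26), against -0.92 for Sall2. Fgf4, the FGF ligand of naive cells, was at the lower end, with 1809 and 1296 in serum against 2720 and 2402 in 2i. Whether paralogues differ from each other in their change was not tested.

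For contrast, 18 naive pluripotency genes had a median log2 fold change of -0.29, with 7 higher in serum ESCs and 0 passing over all genes (limma). Both 2i libraries were above both serum libraries in 7 (19.4% of all genes), and the reverse held in 3 (20.5%). Gbx2, a homeobox gene, had the highest log2 fold change (2.58), with 714 and 981 normalized counts against 157 and 124 in 2i. Dppa3, the naive and germ cell marker, had the lowest log2 fold change, with 18.0 and 17.5 in serum against 244 and 391 in 2i, giving -4.05 with an SE of 0.74 and an adjusted p-value of 0.753 in limma. The unadjusted limits were passed by 1 in favour of serum (2.97% of all genes) and by 2 in favour of 2i (3%), Dppa3 and Fbxo15, the latter named after its values were seen. DESeq2 called Gbx2 in favour of serum (0.561% of all genes) and Dppa3 in favour of 2i (1.37%), and edgeR called 0. Dppa3 passed the filter on low values only through 2i ESCs. The 9 core pluripotency genes, which include Lin28a, had a median of 0.33, and Dppa5a was at their lower end (7699 and 15182 in serum, 16846 and 25318 in 2i).

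**Figure D4:**
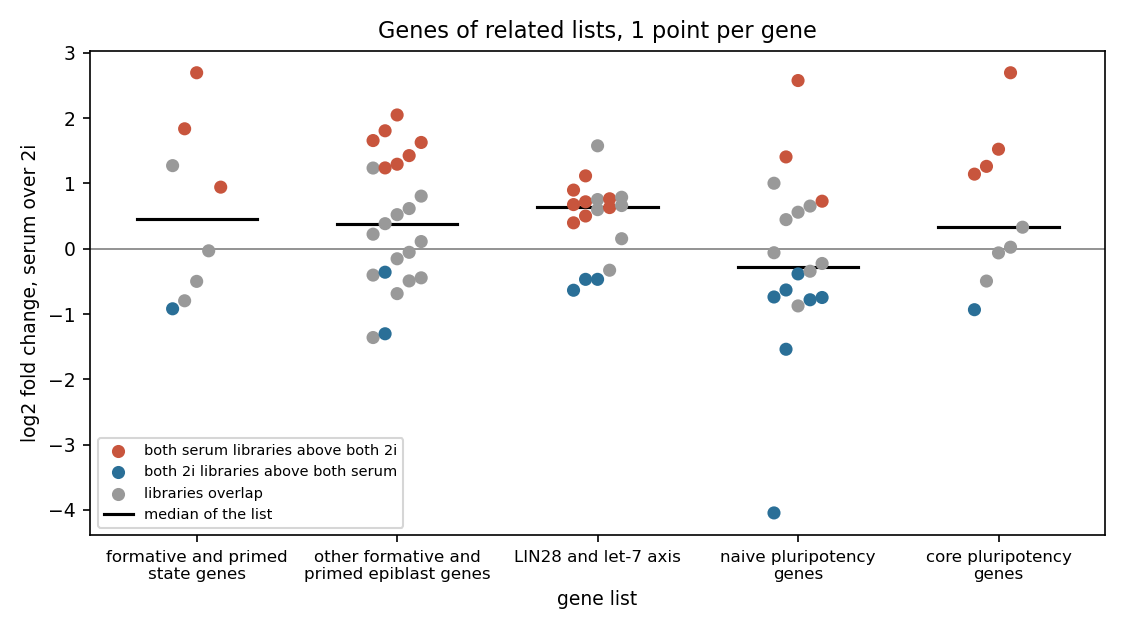
Log2 fold change (serum over 2i) of each gene tested in 5 lists, with the median as a black line. Red points have both serum libraries above both 2i libraries, blue points the reverse, and grey points overlap; the medians lie between -0.29 for the naive and 0.65 for the LIN28 and let-7 list.

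Markers of other cell types that could hold transcripts of these genes were also summed. Of 12 neural ectoderm markers 6 had a row, and their summed normalized counts were 1096 and 1130 in serum against 833 and 1024 in 2i, from Pax6 (log2 fold change 0.63) to Map2 (-0.35). Sox1 had no row. Of 10 mesendoderm markers 6 had a row, summing to 398 and 339 in serum against 453 and 421 in 2i. Mixl1 and Mesp1 had no row. The 6 ran from Fgf17 (log2 fold change 1.86, SE 1.04) to Gsc (-3.26, SE 2.05). Gsc had only 0.972 normalized counts in serum replicate 2. Of 12 primitive endoderm markers 9 had a row, summing to 4317 and 8276 in serum against 5308 and 6334 in 2i. They ran from Col4a1 (1.42) to Gata4, an endoderm factor with 13.0 and 42.8 in serum against 152 and 169 in 2i. Gata4 had a log2 fold change of -2.70 (limma, unadjusted p-value 0.0238, adjusted p-value 0.753). Like Gata6, it passed the filter on low values only through 2i ESCs, which favours that direction. Gata6 (-2.28, SE 1.66) and Sox17, which was too low to be tested, also had both 2i libraries above both serum libraries. These 2 were named after their values were seen. Of the 7 markers tested, 4 had a log2 fold change above 0. Both serum libraries lay above both 2i libraries in 0 of the 7 (20.5% of all genes). The reverse held in 2, Gata4 and Gata6 (19.4% of all genes). Only 3 of 10 fibroblast and feeder cell markers had a row, summing to 304 and 267 in serum against 268 and 109 in 2i, from Thy1 (2.40) to Col1a1 (-1.33). Thy1 had 173 and 185 in serum against 131 and 7.76 in 2i (SE 1.30). Gsc, Map2 and Col1a1 also passed the filter on low values only through 2i ESCs, and Fgf17 only through serum ESCs. The part of such cells in the differences was not tested. In bulk RNA, fewer cells expressing a gene and less RNA per cell cannot be told apart.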

How the data were processed

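RNA was measured in 2 serum and 2 2i libraries of ESCs sorted in G1-phase. Per the study's methods, total RNA was depleted of ribosomal RNA, primed at random and sequenced as single 43-base reads. The authors aligned reads to mm9 with Bowtie, quantified transcripts with MMSeq, kept genes with at least 50 reads in either condition and scaled gene counts with DESeq2. Versions and strand settings are not given in the sources used here. The deposited values are a signal, namely these counts over a size factor. Every value was a whole multiple of 1 step for each library (within 0.01), so whole reads could be recovered for all 14533 genes.

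Genes were tested with limma 3.58.1 (R 4.3.3, trend, no replicate term) on log2(normalized count + 1) where the mean reached 50 in either condition (13005 genes). An exact permutation test of 2 against 2 libraries cannot give a two-sided p below 0.333 and was not used. The 18 alternatives included other pseudocounts, filters and scalings, edgeR 4.0.16 and DESeq2 1.42.0 on whole reads, GC content and length correction (mgcv 1.9.3), the replicate block and leaving out each library. The fits were checked on simulated data. Names and positions came from GENCODE vM1 (same build), which spells Ago2, Map2 and Tfcp2l1 otherwise; RefSeq synonyms matched these 3. The genes and lists were chosen with earlier results of these data known. Each list's highest and lowest gene was named, with any gene of the LIN28 and paralogue lists. The values of 1 listed gene are not reported here.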

Additional observations from a re-analysis of the deposited data

How the results depend on the processing

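The direction of Lin28a, Lin28b, Pou3f1, Zic2, Sall2 and Utf1 held under every alternative that gave a value. A mean of at least 200 left out Pou3f1, Zic2 and Sall2, and the GC content and length correction left out Pou3f1, which has no coding transcript sequence. Otx2 turned to 0.34 without 2i replicate 2. Foxd3 turned to 0.32 under quantile normalization, to 0.51 after GC content and length correction with or without the replicate block, and to 0.32 and 1.29 without serum replicate 1 and 2i replicate 2. Their log2 fold changes ranged, with each library left out, from -1.34 to 0.34 for Otx2 and from -1.35 to 1.29 for Foxd3. Upper quartile scaling moved the median of all genes to -0.12, and a mean of at least 200 to 0.12.

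Lin28a passed the threshold in 2 of 18 alternatives, namely DESeq2 on whole reads (2.68) and the replicate block (2.70, adjusted p-value 0.00371), where 1 of the 8 genes was called in each. Its adjusted p-value otherwise lay between 0.315 (the replicate block with GC content and length correction) and 1. At a mean of at least 200 the median was 1.27, over the 5 genes that remained. With each library left out the median of the 8 genes lay between 0.080 (without 2i replicate 1) and 0.67 (without serum replicate 1).

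Genes called higher in serum ESCs numbered 73 with DESeq2 and 44 with the replicate block, against 0, and those higher in 2i ESCs 178 and 159, against 2. The latter were 4 at a mean of at least 200, 1 with limma without trend, 0 with edgeR, 0 after GC content and length correction with or without the replicate block, and 0 without each library. The cause was not tested. The replicate differences of the conditions correlated with r = 0.480 across genes, but had the same sign in 2 of the 8 genes. With 2 pairs, the shared numbers are not shown to pair the libraries. Of the medians of the 8 genes and the other lists, 10 shifted beyond 1 SD of the replicates and 168 did not, over the 18 alternatives. Without 1 library, the lone library of its condition is assumed to vary like the other condition.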
